A study of Rattus norvegicus with 12 samples.

Results

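The cytosolic ribosome is built from ribosomal RNA and a large set of ribosomal proteins, named Rpl for the large subunit and Rps for the small one, with Rplp0, Rplp1 and Rplp2 forming the stalk that recruits elongation factors. Their mRNAs are among the most abundant of any cell, and most begin with a run of pyrimidines at the 5′ end, the terminal oligopyrimidine tract, through which mTORC1 signaling controls their translation. The genes described here are those whose RefSeq symbol is Rpl or Rps followed by a digit, without the S6 kinases, or Rplp0 to Rplp2. By this rule 138 of the 30367 probes on the array report 79 of the 15154 named genes, 46 of the large subunit, 30 of the small subunit and 3 of the stalk. Each gene is represented by its brightest probe, and 45 of the 79 genes have several probes. A probe may also bind transcripts of the many processed copies of these genes in the rat genome.

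The study compared primary hippocampal cultures of Wistar rat embryos (E18), either exposed to oxygen-glucose deprivation (OGD, glucose-free buffer in an anaerobic chamber, an in vitro model of global ischemia) or kept in buffer with glucose in air, and collected 7 h or 24 h after return to conditioned medium. Each of the 4 groups (Ctrl 7h, OGD 7h, Ctrl 24h and OGD 24h) has 3 arrays from 3 independent cultures, and a slide (6 in all) carries a control array beside its OGD counterpart. The label calls the tissue primary hippocampal neurons. All 14 neuron markers with a probe were well above background on every array, and so were 9 of 9 astrocyte, 9 of 10 oligodendrocyte, 7 of 10 vascular and 6 of 10 microglia markers. Values are log2 signals with the median of the array subtracted, and changes are log2 fold changes of OGD over control, with standard errors from limma.

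Some of the genes carry a pyrimidine run at or near the annotated start. A start window was present for 64 of the 79 genes in the RefSeq table (build GRCr8). A run of at least 6 C or T bases on the gene's strand, touching the positions from 3 bases before the start to the sixth base of the transcript, was found in 41 of these 64 genes (64.1%), against 17.6% of the 27457 genes in the table. The windows below run from 10 bases before the start to the twentieth base of the transcript, 5′ to 3′ on the strand of the gene, with the run in capitals. The first 6 belong to genes with a probe that kept away from the scanner limit and hold a run. A run need not begin at the first base of the transcript. It begins at base 6 in Rpl36al1 and 7 bases before the start in Rps4y2. The last 3, Rpl22l1, Rpl39l1 and Rpl3l, are genes named for their likeness to Rpl22, Rpl39 and Rpl3, and hold no such run. The starts of Rpl3, Rpl5, Rpl11, Rplp2, Rps6 and Rps19 held no such run either, so its absence is not particular to these 3.
Rpl12: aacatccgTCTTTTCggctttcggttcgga
Rpl14: ggCCCTCTCCCTTCTCgctgagcgccgcca
Rpl28: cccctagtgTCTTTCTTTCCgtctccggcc
Rpl36al1: cttccgctccatccgTCCCTTTCCTgttcg
Rps26: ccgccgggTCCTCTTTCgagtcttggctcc
Rps4y2: cagCTCTCCTCactcgcttgtgctctggga
Rpl22l1: gtggatatccggttccgagttgcgcagcgc
Rpl39l1: caggccgtcccgctatcctggtgtgtggtc
Rpl3l: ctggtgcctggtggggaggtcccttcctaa

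Most ribosomal protein transcripts were too bright for the scanner. The probes of 35 of the 79 genes were saturated on all 12 arrays, 24 were saturated on 1 to 11 arrays, and 20 on none. Between 36 and 59 of the 79 probes were saturated on a single array, with the fewest on OGD 24h replicate 1, the dimmest array, and the most on Ctrl 7h replicate 1, the brightest. Of the 20 genes without saturation, 15 had a mean log2 signal between 13.55 and 15.64, and Rpl15, Rpl39l1, Rpl3l, Rps12l4 and Rpl27l2 were far dimmer. Rpl27l2, a gene named for its likeness to Rpl27, was not well above background on any array.

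**Figure D1:**
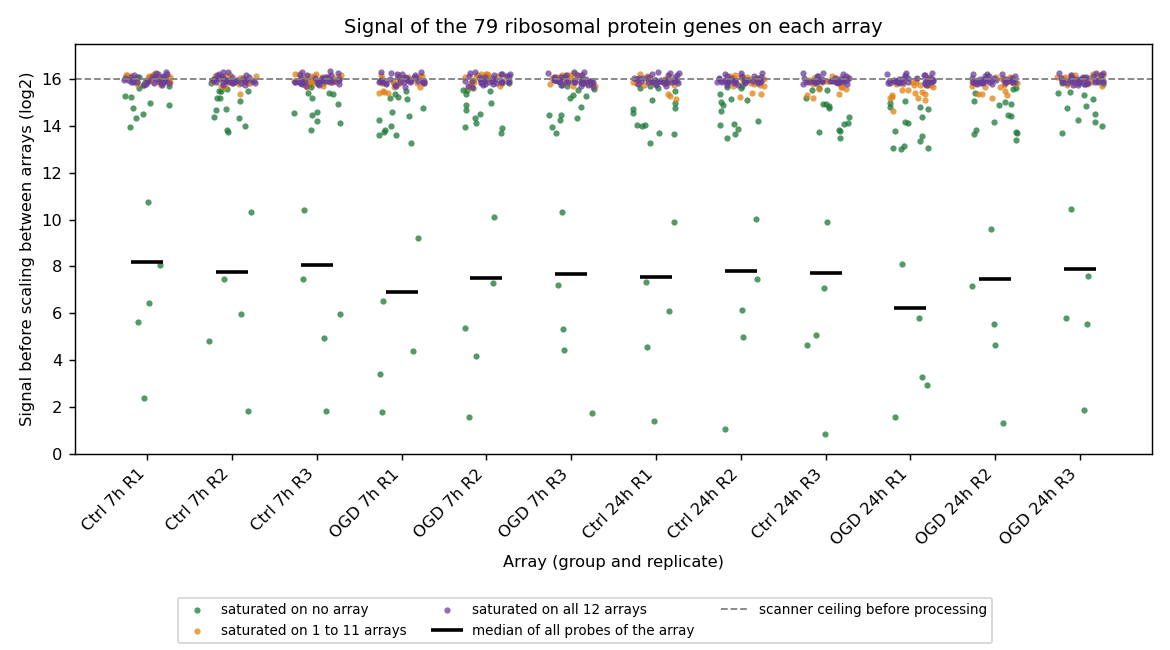
Signal of the 79 ribosomal protein genes on each of the 12 arrays, on the log2 scale before any scaling between arrays (y axis), by group and replicate (x axis). Each point is 1 gene colored by the number of arrays on which its probe was saturated, the black bar is the median of all probes of the array, and the dashed line is the scanner limit of 65288 units before the software's corrections. The 35 genes saturated on all arrays stay at the limit on every array while the array medians range from 6.23 on OGD 24h replicate 1 to 8.20 on Ctrl 7h replicate 1.

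A spot at the limit cannot report a change, and its centred value carries the change of the array median instead. On the log2 scale the mean array median of the control arrays exceeded that of the OGD arrays by 0.64 at 7 h and by 0.49 at 24 h. The median log2 fold change of the 35 genes saturated on all arrays was 0.64 at 7 h and 0.49 at 24 h, with values from 0.58 to 0.69 and from 0.45 to 0.51. The 20 other named genes saturated on all arrays had medians of 0.63 and 0.48. Rplp0, a stalk protein long used as a reference transcript, is typical: its centred values were 8.03, 8.47 and 8.21 on the Ctrl 7h arrays and 9.33, 8.73 and 8.61 on the OGD 7h arrays. At 24 h they were 8.72, 8.46 and 8.49 on the control arrays and 10.00, 8.77 and 8.35 on the OGD arrays. The groups of Rplp0 did not overlap at 7 h, although every one of these spots was at the limit. Rplp1 and Rplp2 were likewise saturated throughout.

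Saturation thus leaves 42 genes without a fold at 7 h, and 36 at the later time, since their probes were saturated on all 6 arrays of that time. These include Rpl11, which with Rpl5 and 5S rRNA forms the particle that binds Mdm2, and the common reference genes Rpl13a, Rpl19, Rpl32 and Rps18. Another 9 genes at 7 h, among them Rpl3, Rpl39 and the ubiquitin fusion gene Rps27a, and 4 at 24 h were saturated on all 3 control arrays and on 1 or 2 OGD arrays, and are given no fold either. The remaining 28 genes at 7 h and 39 at 24 h had at least 1 unsaturated array in each group.

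Across all 79 genes, the median log2 fold change was 0.63 at 7 h and 0.47 at 24 h, and 76 were above 0 at each time. These medians follow from the saturated probes: over the 20 genes without saturation they were 0.31 and 0.39, with 17 genes above 0 at each time. By limma at an unadjusted p under 0.05, 4 genes were higher at 7 h and 1 was lower, beside 4.79% and 7.03% of all probes. At 24 h, 3 genes were higher and none was lower, beside 7.51% and 6.19% of all probes. Of 1326 other named genes near the ribosomal protein genes in brightness, 7.77% were higher at 7 h and 3.77% at 24 h. These 1326 genes are not a matched background. Only 20 of them were saturated on all arrays and 1110 on none, against 35 and 20 of the 79 genes. No gene reached a fold of 2 with p under 0.05, which 3.74% of all probes did at 7 h and 5.67% at 24 h. After Benjamini-Hochberg adjustment over all probes none passed, and the lowest adjusted p among the 79 genes was 0.358 at 7 h and 0.313 at 24 h. The OGD arrays lay wholly above the control arrays for 69 genes at 7 h, where 10.6% of all probes did so, and for 9 genes at 24 h, where 10.9% did. All 35 of the fully saturated genes are among the 69, so that this count says little about the transcripts.

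The 4 genes with p under 0.05 and higher values at 7 h all had saturated arrays at that time. Rpl12, a protein at the base of the stalk, had 1 saturated control array and a log2 fold change of 0.63 ± 0.27 (SE, limma, adjusted p = 0.393). Rps14, a small-subunit protein of the platform, had 2 saturated control arrays and a value of 0.59 ± 0.25 (limma, adjusted p = 0.403), and its second probe, saturated on none, gave 0.47 ± 0.25 (unadjusted p = 0.0917, adjusted p = 0.491). Rpl7a and Rps27, with 3 and 4 saturated arrays of the 6, gave 0.55 and 0.69. The excess at 7 h over equally bright genes was 0.42 for Rpl12, 0.33 for Rpl7a and -0.02 for Rps14. Rpl7a lost its call without Ctrl 7h replicate 1 or 3 or OGD 7h replicate 1. Without OGD 7h replicate 1, Rpl12, Rps14 and Rps27 gave 0.50, 0.47 and 0.50 and passed no longer, and none of these 3 passed without Ctrl 7h replicate 1, Ctrl 7h replicate 3, OGD 7h replicate 2 or Ctrl 24h replicate 2 either. Further calls at 7 h came from dimmer probes saturated on no array, those of Rps19 and Rpl36a (given below), Rps15, Rpl35 and Rpl36. Rps15 gave 0.52 (limma, unadjusted p = 0.013) and lost its call only without OGD 7h replicate 1 (unadjusted p = 0.053). Rpl35 (0.65) and Rpl36 (0.56) lost theirs in 8 and 9 of the 12 fits with 1 array left out. The 1 lower gene was Rps12l4, a dim gene named for its likeness to Rps12 that was not well above background on OGD 7h replicate 1, with a log2 fold change of -0.50 ± 0.21 (limma, adjusted p = 0.398), which was -0.35 without Ctrl 7h replicate 1 and was called in neither that fit nor those without Ctrl 7h replicate 2, OGD 7h replicate 1 or 2 or Ctrl 24h replicate 1 or 2, nor with the slide as a block (unadjusted p = 0.0882).

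Of the 3 genes called at 24 h, Rpl5, the 5S rRNA partner of Rpl11, had the lowest p. It was saturated on no array, but its median spot signal reached 52808 units, beside the limit of 65288. Its centred values were 7.17, 7.13 and 7.05 on the control arrays and 7.93, 7.43 and 7.42 on the OGD arrays, with no overlap. The log2 fold change of Rpl5 was 0.48 ± 0.18 (unadjusted p = 0.0217, adjusted p = 0.312), and without OGD 24h replicate 1 it was 0.31 (unadjusted p = 0.0535). The call was also lost without Ctrl 24h replicate 2 (0.49) or replicate 3 (0.45). At 7 h, Rpl5 had 7.42, 7.42 and 7.33 on the control arrays and 7.51, 7.42 and 7.67 on the OGD arrays, a change of 0.14 ± 0.18 with overlapping groups. Rpl12 had 7.61, 7.57 and 7.62 on the control arrays at 24 h and 8.88, 7.87 and 7.82 on the OGD arrays, and its change of 0.59 ± 0.27 (unadjusted p = 0.048, adjusted p = 0.361) fell to 0.25 (unadjusted p = 0.157) without OGD 24h replicate 1. With the slide as a block this call of Rpl12 was lost (unadjusted p = 0.0614), and it was lost in 10 of the 12 fits with 1 array left out. Rpl27l2, also past the threshold, was below the level of reliable detection throughout and is given no fold.

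Because bright probes shift together on these arrays, each gene was set beside the 100 other named genes nearest to it in mean centred signal. Among the other named genes, the median change was -0.04 at 7 h and -0.16 at 24 h at a mean log2 signal of 14 to 15, and in the 77 brightest of them it was 0.62 and 0.35. The 7 ribosomal protein genes at 14 to 15 had medians of 0.29 at 7 h and 0.39 at 24 h. Over all 79 genes the median excess over equally bright genes was 0.05 at 7 h and 0.23 at 24 h, with 72 and 77 genes above them. Near the limit the comparison has little meaning, since the other genes there are saturated too.

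**Figure D2:**
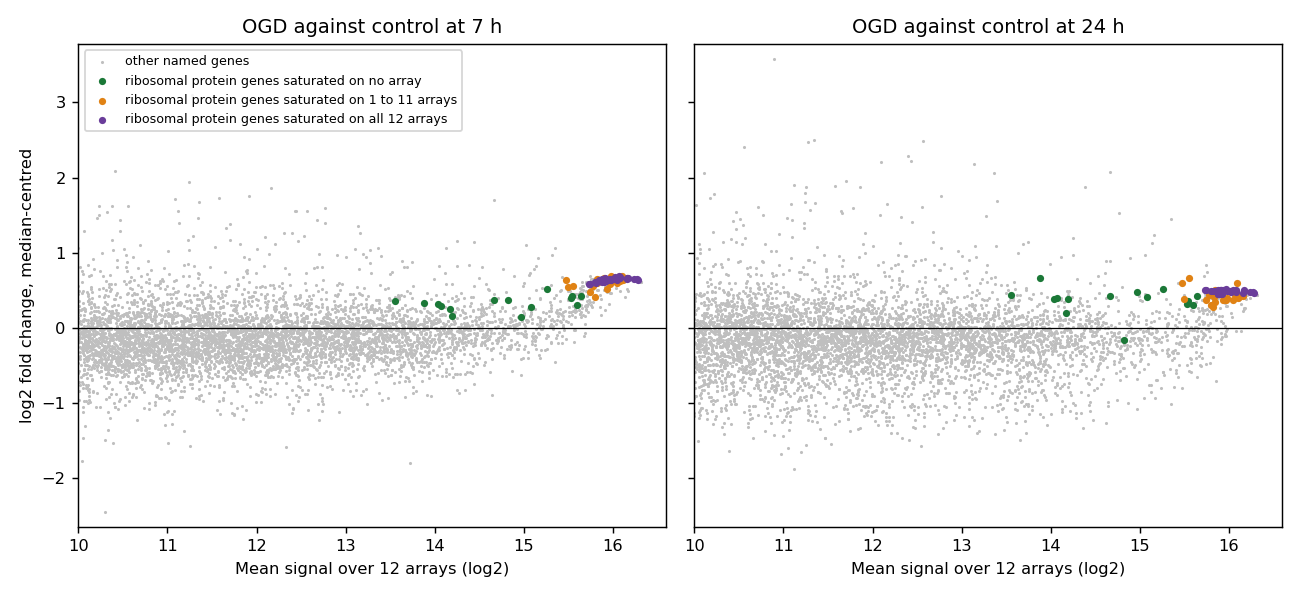
log2 fold change of OGD over control at 7 h and at 24 h (y axes, centred on the array median) against the mean log2 signal over 12 arrays (x axes), 1 point per named gene with a mean of at least 10. Ribosomal protein genes are colored by saturation, and toward the limit they and the gray genes converge on 0.64 at 7 h and 0.49 at 24 h, the difference of the array medians, while at 14 to 15 the ribosomal protein genes had medians of 0.29 and 0.39 and the gray genes -0.04 and -0.16. With spike-in scaling the median of the 79 genes was below 0 at both times (-0.17 and -0.56).

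Probes with room below the limit give the most direct measurement. A probe that stayed under 32644 units (0.5 of the saturation value) and well above background on every array was available for 16 genes. Of these, 11 are of the large subunit and 5 of the small one, and for 10 of them it is a second probe of the gene. The threshold of 32644 units applies to the median signal of the spot before the software's corrections. The corrected signal can exceed it, as for Rpl14 on OGD 24h replicate 3 (34458 units). This selection was made after the saturation was seen, so that its medians are given with no test. The median log2 fold change of the 16 genes was 0.31 at 7 h and 0.44 at 24 h, with 14 above 0 at each time, but under scaling to the spike-in probe the medians were -0.49 and -0.59, and with normexp background correction they were -0.25 and 0.06. The median change of all probes was -0.06 and 0.01 as centred here, -0.85 and -1.02 with the spike-in, and 0.09 at both times with normexp, so that with normexp at 7 h the 16 genes lay below all probes, and only 1 of them above. Against equally bright genes all 16 were higher at both times, by a median of 0.41 at 7 h and 0.63 at 24 h. Scaling by the 75th percentile or the spike-in shifts all genes of an array alike, so that it cannot change this excess. Quantile and cyclic loess adjust each array by brightness, so that they move equally bright genes nearly alike and could change the excess little. With quantile, cyclic loess and normexp the excess was between 0.41 and 0.42 at 7 h and between 0.57 and 0.63 at 24 h. All 16 genes were above their neighbors in each. With array quality weights it was 0.30 and 0.32, with 16 and 14 genes above.

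The per-array medians of the 16 genes show the same order. The median centred level was 6.04, 5.996 and 5.82 on the Ctrl 7h arrays and 6.38, 6.14 and 6.15 on the OGD 7h arrays. At 24 h it was 5.98, 5.94 and 5.86 on the control arrays and 6.74, 6.14 and 6.18 on the OGD arrays. The groups did not overlap at either time, and replicate 1 was the highest of both OGD groups. Relative to equally bright genes, the median level was -0.32, -0.25 and -0.12 on the Ctrl 7h arrays and 0.47, 0.16 and 0.10 on the OGD 7h arrays. At 24 h it was -0.49, -0.32 and -0.18 on the control arrays and 1.00, -0.01 and -0.07 on the OGD arrays. Both OGD replicate 1 arrays are the dimmest of their time, with array medians of 6.92 and 6.23 on the log2 scale, and the part of this in the result was not tested. Without OGD 24h replicate 1 the median change of the 16 genes at 24 h was 0.21 and the excess 0.22, with 15 genes above their neighbors. In unscaled signal the 16 genes had medians of 19363, 13760 and 15038 units on the Ctrl 7h arrays and 10068, 12740 and 14436 on the OGD 7h arrays, so that before centring the groups overlapped and the highest array was a control. At 24 h the unscaled medians were 11881, 13515 and 12231 on the control arrays and 8068.6, 12461 and 17295 on the OGD arrays, which held both the lowest and the highest value. Within the slides of replicates 1, 2 and 3, the median OGD minus control was 0.34, 0.21 and 0.30 at 7 h and 0.80, 0.21 and 0.31 at 24 h for the 16 genes, against 1.24, 0.25 and 0.38 at 7 h and 1.27, 0.30 and -0.13 at 24 h for all 79.

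**Figure D3:**
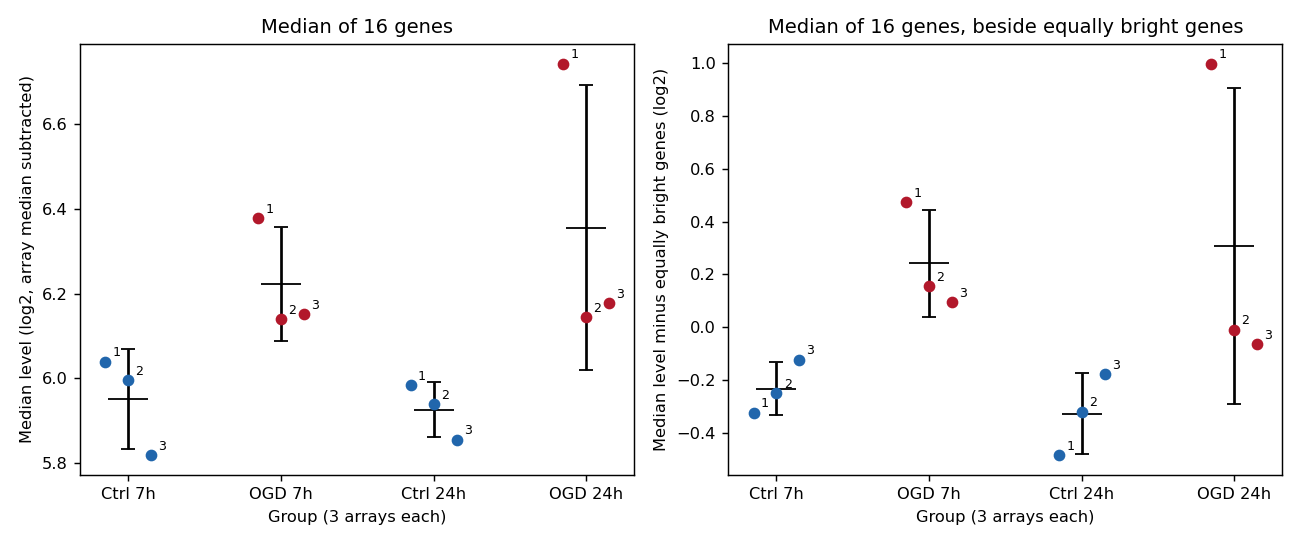
Median level of the 16 genes with a probe under 32644 units before the software's corrections, by group (x axes). It is shown as the log2 level with the array median subtracted (left) and as the difference from equally bright genes (right). Points are single arrays labeled by replicate, bars are the mean and SD of 3 arrays, and the y axes do not start at 0. The OGD arrays lie above the control arrays at both times in both panels, by the most on replicate 1 at 24 h (6.74, and 1.00 above equally bright genes), and with spike-in scaling the change in the left panel would be negative at both times and with normexp negative at 7 h.

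Among the large-subunit genes of this group, Rpl14 had the lowest p at 24 h. The second probe of Rpl14 had centred values of 6.46, 6.65 and 6.43 on the control arrays and 7.06, 6.90 and 7.18 on the OGD arrays at 24 h. The change was 0.53 ± 0.18 (unadjusted p = 0.0154, adjusted p = 0.296), and replicate 1 was not the highest array here. Rpl14 kept its call in each of 12 fits with 1 array left out (0.46 to 0.60, highest unadjusted p = 0.0494) and with the slide as a block (unadjusted p = 0.0349). At 7 h it gave 0.32 ± 0.18 with overlapping groups, and its brighter probe, saturated on 11 of 12 arrays, is given no fold. The second probe of Rpl28 gave 0.52 ± 0.22 at 24 h (unadjusted p = 0.0347, adjusted p = 0.334), from 6.38, 6.39 and 6.35 on the control arrays to 7.38, 6.62 and 6.70 on the OGD arrays. Without OGD 24h replicate 1 this probe of Rpl28 gave 0.28 (unadjusted p = 0.107). Another, dim probe of Rpl28, below the array median, gave 0.08 ± 0.15. The second probe of Rpl27 gave 0.44 ± 0.17 (unadjusted p = 0.0263, adjusted p = 0.317), from a control mean of 5.97 ± 0.028 (SD) to 6.68, 6.18 and 6.36 on the OGD arrays, and 0.30 (unadjusted p = 0.0653) without OGD 24h replicate 1. The calls of Rpl27 and Rpl28 were also lost without any 1 of the Ctrl 24h arrays, and that of Rpl27 with the slide as a block (unadjusted p = 0.0603).

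For Rpl12 the second probe can be compared with the brighter one. It had 6.20, 6.002 and 6.15 on the Ctrl 7h arrays and 6.61, 6.29 and 6.43 on the OGD 7h arrays, a change of 0.33 ± 0.22 where the brighter probe gave 0.63. At 24 h it gave 0.55 ± 0.22 (unadjusted p = 0.0337, adjusted p = 0.332), where the brighter probe gave 0.59. Without OGD 24h replicate 1 the second probe gave 0.28 (unadjusted p = 0.0981), and its call was also lost without any 1 of the Ctrl 24h arrays. Rpl23a, which binds the signal recognition particle at the tunnel exit, gave 0.49 ± 0.25 at 7 h and 0.48 ± 0.25 at 24 h on its second, dimmer probe, and 0.31 ± 0.22 and 0.39 ± 0.22 on its brightest one, saturated on no array. Of the 3 probes of Rpl37l1, the changes lay between 0.37 and 0.42 at 7 h and between 0.42 and 0.47 at 24 h, or between 0.12 and 0.18 without OGD 24h replicate 1.

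Among the small-subunit genes with room below the limit, the values of Rps4y2, Rps16, Rps25 and Rps26 ranged from 0.20 to 0.35 at 7 h and from 0.33 to 0.67 at 24 h. Rps26, which lines the mRNA exit channel, had 6.31, 6.64 and 6.55 on the Ctrl 7h arrays and 6.89, 6.82 and 6.66 on the OGD 7h arrays. At 24 h Rps26 had 6.11, 6.08 and 6.34 on the control arrays and 7.35, 6.28 and 6.08 on the OGD arrays, so that of the OGD arrays only replicate 1 stood above all control arrays, and without it the change had an unadjusted p of 0.991 by limma. Rps25, needed by several viral internal ribosome entry sites, showed 0.35 ± 0.25 at 7 h and 0.43 ± 0.25 at 24 h. The groups of Rps25 did not overlap at either time, but at 24 h its OGD replicate 3 (5.79) was barely above the highest control array (5.78), and without OGD 24h replicate 1 the change was 0.12.

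**Figure D4:**
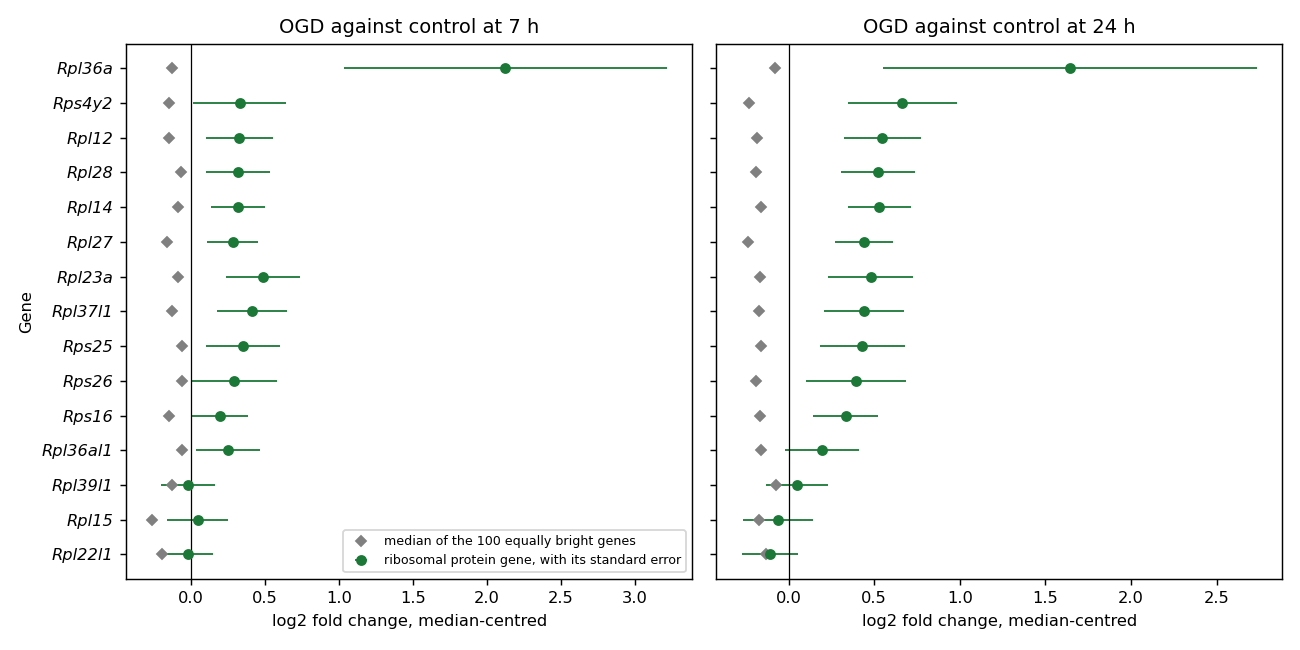
log2 fold change of OGD over control (x axes, centred on the array median) at 7 h and 24 h, with standard errors from limma. The y axis holds 15 of the 16 genes with a probe under 32644 units before the software's corrections. Gray diamonds are the median change of the 100 equally bright named genes, and all 15 genes shown lie to the right of theirs at both times. Rpl22l1, Rpl15 and Rpl39l1 lie near 0, and Rpl36a, on a dim probe with a standard error of 1.09, lies farthest to the right. With spike-in scaling only 1 of the 16 was above 0 at each time, and with normexp 2 at 7 h and 11 at 24 h.

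Several members are paralogs or copies of another member. Rpl22 binds RNA outside the ribosome as well, and Rpl22l1 is its paralog. On its brighter probe, saturated on no array, Rpl22l1 had 7.04, 7.43 and 7.15 on the Ctrl 7h arrays and 7.32, 7.86 and 7.55 on the OGD 7h arrays. At 24 h it had 7.23, 7.31 and 7.12 on the control arrays and 6.89, 7.02 and 7.24 on the OGD arrays. The changes were 0.37 ± 0.19 and -0.17 ± 0.19, and their difference of -0.54 did not pass the test of the interaction (unadjusted p = 0.0778). The second, dimmer probe gave -0.02 and -0.11. Rpl22 itself gave 0.31 ± 0.23 at 7 h and 0.50 ± 0.23 at 24 h (unadjusted p = 0.0484, adjusted p = 0.362) on the probe that was saturated on no array, from 7.35, 7.20 and 7.17 to 8.30, 7.41 and 7.53 at 24 h, and 0.23 without OGD 24h replicate 1 (unadjusted p = 0.155). That call of Rpl22 was lost in 10 of the 12 fits with 1 array left out.

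Rps4x and Rps4y2 encode forms of the small-subunit protein S4. Rps4x, measured by 10 spots of 1 probe per array, had 6.59, 6.60 and 6.50 on the Ctrl 7h arrays and 6.70, 6.62 and 6.81 on the OGD 7h arrays. At 24 h it had 6.46, 6.42 and 6.42 on the control arrays and 7.14, 6.70 and 6.60 on the OGD arrays. The groups of Rps4x did not overlap at either time, with changes of 0.15 ± 0.17 and 0.38 ± 0.17 (unadjusted p = 0.0513, adjusted p = 0.367 at 24 h), the latter 0.22 without OGD 24h replicate 1. Rps4y2 gave 0.33 ± 0.32 and 0.67 ± 0.32, the latter from 6.15, 5.88 and 6.01 to 7.56, 6.18 and 6.29, and fell to 0.22 without OGD 24h replicate 1. A second probe of Rps4y2, near the array median, gave 0.02 at both times. It gave 0.50 at 7 h without OGD 7h replicate 1 (limma, unadjusted p = 0.125) and 0.19 at 24 h without OGD 24h replicate 1.

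Rpl3l, the muscle form of Rpl3, lay below the array median, with values between -3.29 and -1.46, and gave -0.43 ± 0.39 at 7 h and -0.51 ± 0.39 at 24 h. Its probe was well above background on 11 of 12 arrays, and at 24 h the change was -0.08 without OGD 24h replicate 1 and -0.87 (unadjusted p = 0.0415) without Ctrl 24h replicate 3. Rpl39l1, named for its likeness to Rpl39, had values between -0.64 and -0.16 on all arrays and changes of -0.02 ± 0.18 and 0.05 ± 0.18. Rpl15, measured by 10 spots of a probe at a mean log2 signal of 9.92, gave 0.05 ± 0.20 and -0.06 ± 0.20 with overlapping groups. Rpl36a has 4 probes, and 3 of them gave between 0.43 and 0.52 at 7 h and between 0.34 and 0.51 at 24 h, of which 1 passed the threshold at 7 h (0.51 ± 0.20, limma, unadjusted p = 0.0252, adjusted p = 0.356) and was lost without Ctrl 7h replicate 3 or OGD 7h replicate 1 or 2. Without OGD 24h replicate 1 these 3 gave between 0.18 and 0.19 at 24 h. Its dimmest probe behaved otherwise, with -2.07, -1.24 and -1.37 on the Ctrl 7h arrays and 2.55, 0.13 and -0.995 on the OGD 7h arrays, and with 2.94 on OGD 24h replicate 1 against -1.23 and -1.21 on the other OGD 24h arrays. Rpl36al1, a related gene by name, gave 0.25 ± 0.22 and 0.19 ± 0.22, the latter 0.01 without OGD 24h replicate 1.

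Of the other bright genes, Rps6, the substrate of the S6 kinases, was saturated only on 1 Ctrl 7h array. Rps6 had 7.91, 8.07 and 7.88 on the Ctrl 7h arrays and 8.57, 8.50 and 8.25 on the OGD 7h arrays, a change of 0.48 ± 0.25 that lay 0.04 below equally bright genes. At 24 h the change of Rps6 was 0.38 ± 0.25, and 0.07 without OGD 24h replicate 1. Rps19, which is mutated in Diamond-Blackfan anemia, has 1 probe saturated on no array, and it gave 0.69 ± 0.31 at 7 h (unadjusted p = 0.0492, adjusted p = 0.42) and 0.65 ± 0.31 at 24 h (0.24 without OGD 24h replicate 1), although its signal was close to the limit. The 7 h call of Rps19 was lost in 9 of the 12 fits with 1 array left out. Rps24, Rpl27a and Rpl30, saturated on none of the arrays, gave 0.40, 0.42 and 0.43 at 7 h. These 3 values lay above those of equally bright genes by 0.16, 0.02 and 0.19. At 24 h the 3 genes gave 0.31, 0.42 and 0.36, or 0.05, 0.19 and 0.08 without OGD 24h replicate 1. Rpl17, also without saturation, gave 0.28 at 7 h and 0.40 at 24 h (0.20 without that array), with the OGD arrays above the control arrays at 24 h.

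The responses at 7 h and 24 h were compared by the interaction of OGD and time. The interaction passed p under 0.05 for 1 of the 79 genes, Rps12l4 (0.73 higher at 24 h, unadjusted p = 0.0326), beside 3.58% of all probes. This call was lost with the slide as a block (unadjusted p = 0.0783) and in 6 of the 12 fits with 1 array left out (0.57 to 0.86), those without Ctrl 7h replicate 1, OGD 7h replicate 1 or 2, Ctrl 24h replicate 1 or 3, or OGD 24h replicate 3. The median difference between the responses, 24 h minus 7 h, was -0.14 over all 79 genes, which for the saturated genes is the difference of array medians, and 0.06 over the 20 genes without saturation. Of the 16 genes with room below the limit, none passed this test.

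The start run was set beside the changes for the 10 of the 16 genes that have a window. The 6 with a run, shown above (Rpl12, Rpl14, Rpl28, Rpl36al1, Rps26 and Rps4y2), ranged from 0.25 to 0.33 at 7 h and from 0.19 to 0.67 at 24 h. The 4 without one (Rpl22l1, Rpl36a, Rpl39l1 and Rps16) ranged from -0.02 to 2.12 and from -0.11 to 1.64, where the upper values are those of the dim Rpl36a probe. These ranges are a description, with too few genes to compare.

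Among the ribosomal proteins that the symbol rule leaves out, Fau was saturated on 11 arrays and Rpsa on 4, and Rack1, saturated on none, gave -0.04 ± 0.18 at 7 h and 0.35 ± 0.18 at 24 h. The counts of the lists that follow stand beside 4.79% of all probes higher and 7.03% lower at 7 h, and 7.51% and 6.19% at 24 h. Of 18 other mRNAs of the elongation and oligopyrimidine class, 6 had a probe saturated on at least 1 array, 1 of them on all 12. At 7 h, 3 of the 18 were higher (16.7%) by limma at an unadjusted p under 0.05 and none lower, with a median of 0.35. The 3 were the elongation factor genes Eef1a1 and Eef1d (0.53 and 0.41) and Npm1 (0.49), a nucleolar chaperone of ribosome assembly, and the probe of Eef1a1 was saturated on 6 arrays. At 24 h, 1 of the 18 was higher (Npm1, 0.44) and the median was 0.28. Of 27 initiation factor genes, 1 was higher (3.70%) and 4 lower (14.8%) at 7 h, among the latter the Eif2b subunits Eif2b4 (-0.73) and Eif2b1 (-0.50), and none passed at 24 h.

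Among 68 genes of ribosome assembly and rRNA processing, all without saturation, 4 were higher (5.88%, near the share of all probes) and none lower at 7 h, with a median of 0.19, and 3 were higher (4.41%) and 1 lower at 24 h, with a median of 0.13. Dkc1, the pseudouridine synthase of rRNA, gave 0.57 ± 0.17 at 7 h, and Ebna1bp2 gave 0.73 at 24 h. Among 15 genes of RNA polymerase I and its factors, 2 were higher (13.3%) and 1 lower (6.67%) at 7 h, led by Myc (1.23), a transcription factor of ribosome genes, which was also the 1 higher gene at 24 h (0.90). Of 24 genes of mTORC1 and S6 kinase signaling, none was higher and 2 were lower (8.33%) at 7 h, Sesn2 (-0.94) and Mtor (-0.72), and none passed at 24 h. Of 13 genes of ribosome quality control and hibernation, none was higher, 2 were lower (15.4%) at 7 h and 1 at 24 h (7.69%), Habp4 at both times (-0.83 and -0.83). The 66 mitochondrial ribosomal protein genes, which serve the separate ribosome of mitochondria, had medians of -0.15 and -0.05, with none higher and 2 lower (3.03%) at 7 h and none past the threshold at 24 h.

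Marker genes of the cell types a culture can hold were counted in the same way. Of 14 neuron markers, 2 were lower at 7 h (14.3%) and 8 at 24 h (57.1%), and their summed level (log2) was 9.49 to 10.02 on the Ctrl 24h arrays and 8.41 to 9.50 on the OGD 24h arrays. At 7 h it was 9.38 to 9.76 and 9.26 to 9.70. Of 9 astrocyte markers, Slc1a3 and Aldoc, with 5 and 11 saturated arrays, were higher at 7 h and none at 24 h, with sums of 9.93 to 10.12 on Ctrl 7h, 10.25 to 10.59 on OGD 7h, 10.01 to 10.29 on Ctrl 24h and 9.87 to 10.38 on OGD 24h. Of 10 microglia markers 1 was higher at each time, of 10 oligodendrocyte markers 2 were lower at 7 h and 1 higher at 24 h, and of 10 markers of vascular cells and fibroblasts 2 were lower at 7 h and 2 higher at 24 h. In RNA of a mixed culture, more cells of a type and more RNA per cell cannot be told apart, and the part of these markers' values in the ribosomal protein values was not tested.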

How the data were processed

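RNA of 12 samples, from 3 independent cultures as the biological replicates, was labeled with Cy3 and hybridized to Agilent rat arrays, and the authors read them with Feature Extraction, which subtracted background and corrected trends across each array. The deposited intensity of each spot (gProcessedSignal) is not normalized between arrays. Log2 values centred on the median, deposited by the authors as well, served as an alternative. After removal of outlier spots, log2 signals were averaged per probe and centred on the array median. RefSeq accessions printed in the array design gave names to 18004 of 30367 probes. Spots that the scanner saturated were kept at their value and marked. A single limma model (version 3.58.1, R 4.3.3) held all 4 groups, two-sided, with Benjamini-Hochberg adjustment over all probes. A gene counts as higher or lower at an unadjusted p under 0.05. The median intensity of an array was 131 to 660 units, with 78.3% to 87.1% of spots well above background, and 3 arrays per group limit the precision. The named genes are, by rule, the 5 highest and 5 lowest measured changes at each time, a list of stalk, paralog, 5S-particle and reference genes, and the 2 highest and 2 lowest called genes of each other list at each time, and further genes were chosen after their values were seen. The members and lists were chosen with earlier results of these data known. The procedure was tested on simulated data. Alternatives were other scalings, background correction by normexp (on median signals, in place of the planned mean signals), other probes per gene, other tests, slide blocks, array weights and each array left out. Probes under 32644 units and the slide left out were added after seeing the data. Some genes are not reported here.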

Additional observations from a re-analysis of the deposited data

How the results depend on the processing

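Control and OGD arrays of the same replicate number deviated little together from their group means (correlations from -0.05 to 0.17). With 3 arrays per group, these correlations cannot show whether such arrays came from the same culture. With the slide as a fixed replicate block, the calls were 4 higher and 0 lower (7 h) and 3 higher (24 h), where Rpl12 lost its call at 24 h and Rps4y2 gained one (unadjusted p = 0.0614 and 0.047) and Rps12l4 lost its interaction (0.0783), and as a random replicate block 4 were higher at each time. The median change at 7 h was 0.066 with quantile normalization and -0.17 with spike-in scaling, and at 24 h -0.56 with the spike-in, which rests on 1 usable spike-in probe. Normexp gave 0.09 and 0.07. The count of genes higher at 7 h (4) was 2 with the 75th percentile and with the mean over probes. It was 0 with quantile, cyclic loess, spike-in, normexp, saturated genes left out (of 20 genes), a fold of 2 as well, and probes under 32644 units (of 16). It was 17 by the methods' t-test, 58 with each time alone, 66 with array weights and 66 without the slide of replicate 1 at 24 h. Of these calls, 32, 32 and 35 in the last 3 settings were of genes saturated on all arrays. The count lower at 7 h (1) was 0 with quantile, cyclic loess, spike-in, normexp, the fold of 2 and probes under 32644 units, with or without OGD 24h replicate 1. Some counts of 0 were fixed in advance. All 4 genes called higher at 7 h had saturated arrays, so leaving out saturated genes removes them. No change among the 79 genes reached a fold of 2 at either time. Rps12l4, the 1 lower gene, is not among the 16 genes with a probe under 32644 units. The count higher at 24 h (3) was 8 with quantile (of 79 genes) and with unsaturated probes (of 37). It was 5 with cyclic loess (of 79) and with probes under 32644 units (of 16). It was 10 with array weights, and 1 by the methods' t-test and without the slide of replicate 1. It was also 1 with probes under 32644 units without OGD 24h replicate 1 (of 16). It was 0 with spike-in, normexp, each time alone and the fold of 2. The median difference between the responses was -0.54 without that slide.
Leaving out 1 array at a time, the median was 0.41 to 0.77 at 7 h and 0.02 to 0.81 at 24 h, and the difference -0.60 to 0.17. The counts ranged from 0 to 64 higher and 0 to 1 lower at 7 h and from 0 to 49 higher and 0 to 1 lower at 24 h. The count of 64 and the median of 0.02 are without OGD 24h replicate 1, and the count of 49 without OGD 24h replicate 3. No gene was higher at 7 h without Ctrl 7h replicate 1 or 3, nor at 24 h without Ctrl 24h replicate 2 or 3 or OGD 24h replicate 1.
Among the called genes that were followed through the settings, values changed sign with the spike-in for Rpl12 (-0.17 at 7 h, -0.43 at 24 h), Rps14 (-0.21) and Rps27 (-0.11) at 7 h and Rpl5 (-0.55) at 24 h. They also did so with quantile for Rps14 (-0.028), and with normexp for Rps14 (-0.027) and Rps12l4 (0.58 at 7 h, interaction -0.11). Spike-in scaling shifts all genes of an array alike. It moved the median change of all probes from -0.06 to -0.85 at 7 h and from 0.01 to -1.02 at 24 h. Rpl7a and Rpl27l2, also called, were not followed through the settings, but that shift would take the 0.55 of Rpl7a at 7 h below 0 as well. The cause of the sign changes with quantile and normexp was not tested.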
